A study of Mus musculus with 7 samples.

Results

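6 transcription factors that guide blood progenitors toward monocytes and dendritic cells, Spi1, Spib, Irf8, Irf4, Batf3 and Zeb2, were followed in hematopoietic stem cells (HSCs) with and without Cebpa. They were chosen by name, and each was read by the only probe set annotated to it alone, so all 6 were measured among the 19938 genes of the arrays. The HSCs were LSK cells (lineage negative, Sca1+, cKit+) that were CD150+ and CD48-, sorted from female C57BL/6 bone marrow. The tested mice were Cebpa fl/fl;Mx1Cre (Cebpa Δ/Δ, 4 arrays, 1 mouse each by the series' design) and the controls were Cebpa fl/fl without the transgene (3 arrays). Both genotypes carried Cebpa alleles flanked by loxP sites, were 10 to 12 weeks old when injected with pIC (also written pIpC) to induce Cre, and were taken at day 18. Mx1Cre is driven by an interferon-inducible promoter that is active in many cell types, so the deletion was not limited to HSCs, and because only Cebpa Δ/Δ mice carried the transgene, the loss of Cebpa and the presence of Cre cannot be told apart.

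Spi1 encodes PU.1, an ETS-family transcription factor needed for the development of both myeloid and B cells, and Spib encodes its close relative Spi-B, which is needed for plasmacytoid dendritic cells and B cell responses. Irf8 and Irf4 encode interferon regulatory factors that bind DNA weakly alone and pair with PU.1 or Spi-B on joint ETS-IRF sites. Irf8 is needed for monocytes, plasmacytoid dendritic cells and the cross-presenting conventional dendritic cells, whereas Irf4 serves the other conventional dendritic cells and plasma cells. Batf3 is an AP-1 type factor that maintains Irf8 in cross-presenting dendritic cells, and Zeb2 is a zinc-finger repressor that favours plasmacytoid dendritic cells and monocytes in part by repressing Id2. Cebpa encodes C/EBPα, which drives granulocyte and monocyte progenitors and works beside PU.1 on many myeloid genes. The question is how expression in HSCs changes when Cebpa is lost.

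The array medians lay between 46.2 and 50.4 on the linear intensity scale, and each array correlated with the rest at 0.979 to 0.985 on average. The targeted gene was lower in the deleted cells. On the log2 scale, Cebpa (probe set 10552140) measured 5.11, 5.24, 5.27 and 5.27 in Cebpa Δ/Δ 1 to 4 and 5.54, 5.75 and 5.63 in Cebpa fl/fl 1 to 3, with no overlap and a log2 fold change of -0.41 (SE 0.07, limma adjusted p = 0.337). This 0.751-fold ratio was short of a 1.5-fold decrease. The probe set was dim, at linear intensities of 34.5 to 38.6 in Cebpa Δ/Δ and 46.4 to 53.7 in Cebpa fl/fl. All 5 measured HSC markers (Kit, Slamf1, Procr, Mecom and Hlf) lay above the median gene level, and 0 of them passed the study's thresholds with all arrays. Their log2 fold changes were nevertheless all negative: -0.34, -0.29, -0.26, -0.41 and -0.51 in that order. The Kit arrays did not overlap between genotypes. Mecom and Hlf each passed the thresholds in 1 alternative setting. Cd48, whose protein was absent from the sorted cells by the gate, was between 6.40 and 8.82 in Cebpa Δ/Δ arrays and between 4.62 and 5.61 in Cebpa fl/fl arrays, a log2 fold change of 2.75 (SE 0.58). 1 array of each genotype stood apart in immediate early genes, which cells induce within minutes of stimulation. Jun measured 9.98 on Cebpa Δ/Δ 4 and 10.13 on Cebpa fl/fl 3, against 6.67 to 7.03 on the other 5 arrays, and Fos, Fosb, Egr1 and Nr4a1 showed the same split. Results for the factors and some of the lists are therefore also given without these 2 arrays together, an alternative chosen after the values were seen.

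Of the 6 factors, Spib alone passed the thresholds that the study set, more than 1.5-fold at an unadjusted p under 0.05, read here from limma. This is 1 of 6 higher and 0 of 6 lower, where 1.57% of all genes were called higher and 0.617% lower. After Benjamini-Hochberg adjustment over all genes 0 of 6 passed, as did 0% of all genes in limma, whose smallest adjusted p was 0.207. At an unadjusted p under 0.05 alone, 877 genes were higher and 615 lower. Spib was also the only factor whose arrays did not overlap between genotypes, 1 of 6 higher and 0 of 6 lower, where 3.51% of all genes were separated with Cebpa Δ/Δ higher and 2.46% with Cebpa Δ/Δ lower. All 6 log2 fold changes were positive, with a median of 0.23, whereas 49.7% of all genes were positive with a median of 0.00. Without Cebpa fl/fl 2, Zeb2 turned to -0.01 and the other 5 remained positive. Without Cebpa Δ/Δ 4 and Cebpa fl/fl 3 together, log2 fold changes were 0.29 for Spi1, 0.19 for Irf8 and 0.06 for Irf4. Those of Batf3 and Zeb2 were then 0.17 and 0.07, and Spib alone was past the thresholds.

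Spib was higher in Cebpa Δ/Δ HSCs by about 2-fold. Its log2 intensities (probe set 10562812) were 5.06, 5.11, 5.38 and 6.00 in Cebpa Δ/Δ 1 to 4 and 4.81, 4.09 and 4.15 in Cebpa fl/fl 1 to 3. Every Cebpa Δ/Δ array lay above every Cebpa fl/fl array, with Cebpa Δ/Δ 4 the highest and Cebpa fl/fl 1 close below the lowest Cebpa Δ/Δ array. The means were 5.38 ± 0.43 (SD, n = 4) in Cebpa Δ/Δ and 4.35 ± 0.40 (SD, n = 3) in Cebpa fl/fl. The log2 fold change was 1.03 (SE 0.28, limma adjusted p = 0.580), a 2.05-fold difference with a 95% interval from 1.28 to 3.29. An exact two-sided permutation test gave p = 0.0571, the smallest that 4 against 3 arrays allow. Without Cebpa Δ/Δ 4, the difference was 0.83 on the log2 scale and still past the thresholds, as it was at 0.73 without Cebpa Δ/Δ 4 and Cebpa fl/fl 3 together. On the linear scale the intensities were 33.4, 34.4, 41.5 and 63.9 in Cebpa Δ/Δ and 28.1, 17.0 and 17.8 in Cebpa fl/fl, all but the highest below the array medians, so this difference was read from a dim probe set.

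**Figure D1:**
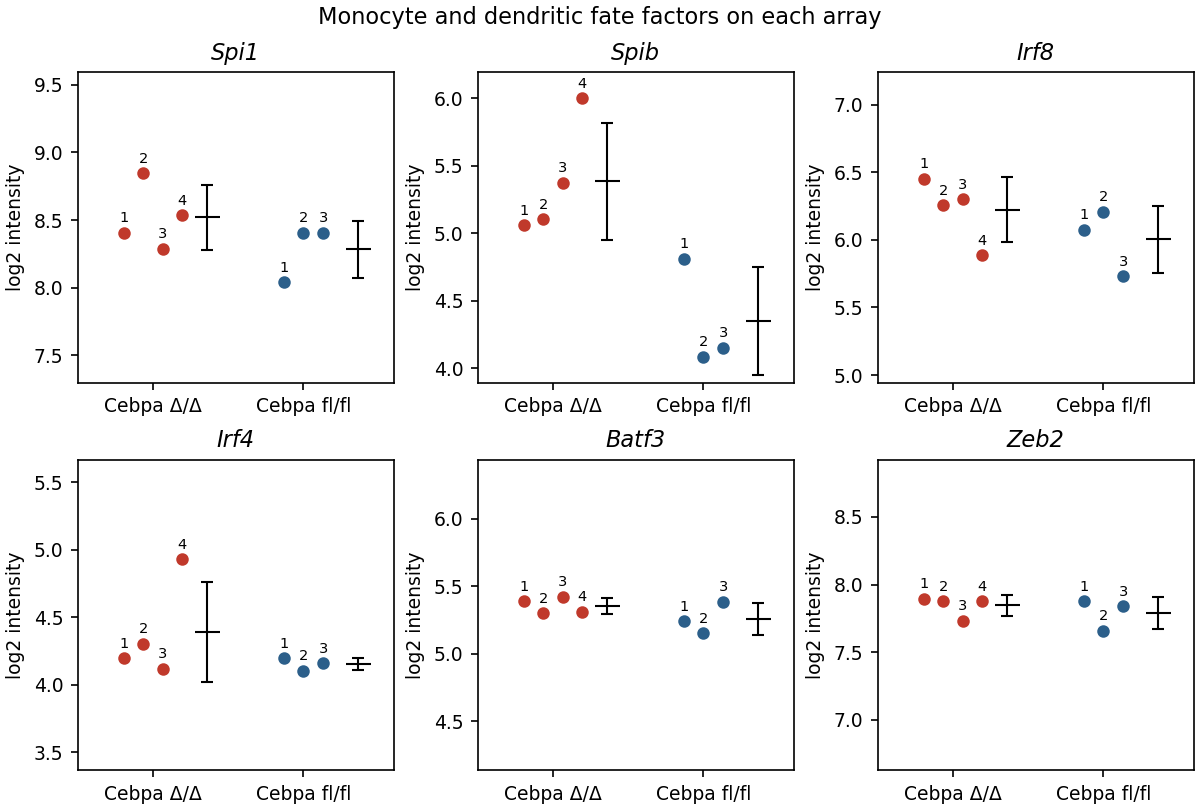
Log2 intensity of the 6 fate factors on each array (y axis, every panel spanning the same number of log2 units), with Cebpa Δ/Δ in red on the left and Cebpa fl/fl in blue on the right. Numbers are replicate numbers and bars are the mean ± SD, and Spib is the only panel in which the genotypes do not overlap.

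The bases before the start of Spib are shown because it is the factor that passed the thresholds. The window holds the 250 bases upstream of the RefSeq start (GRCm38.p6, chr7:44532072-44532321, minus strand, written 5′ to 3′), and the capitals mark TTGTGCAA, a match to the reverse complement of the C/EBP letters TTGCNNAA, 121 to 114 bases before the start.
Spib: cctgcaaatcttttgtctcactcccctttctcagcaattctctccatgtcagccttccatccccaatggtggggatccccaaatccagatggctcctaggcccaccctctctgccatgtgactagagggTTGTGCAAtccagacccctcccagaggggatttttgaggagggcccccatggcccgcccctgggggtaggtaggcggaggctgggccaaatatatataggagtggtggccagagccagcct
Such letters, searched on both strands, occur in 9.56% of the 32851 promoter windows of this length. Binding was not measured on these arrays, and the match is a description of the letters only.

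Spi1 did not pass the thresholds. Its log2 intensities (probe set 10473809) were 8.41, 8.85, 8.29 and 8.53 in Cebpa Δ/Δ and 8.04, 8.41 and 8.41 in Cebpa fl/fl. 2 of 4 Cebpa Δ/Δ arrays lay above all Cebpa fl/fl arrays, and the groups overlapped through the other 2. The means were 8.52 ± 0.24 (SD, n = 4) in Cebpa Δ/Δ and 8.28 ± 0.21 (SD, n = 3) in Cebpa fl/fl, a log2 fold change of 0.24 (SE 0.16, limma adjusted p = 0.740, exact permutation p = 0.286). The 95% interval of the ratio ran from 0.903 to 1.53, so a 1.5-fold decrease lay outside it while a 1.5-fold rise lay just within it. The log2 fold change was 0.11 without Cebpa fl/fl 1 and 0.13 without Cebpa Δ/Δ 2.

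Neither interferon regulatory factor passed the thresholds. Irf8 (probe set 10576034) measured 6.45, 6.26, 6.30 and 5.89 in Cebpa Δ/Δ and 6.08, 6.21 and 5.73 in Cebpa fl/fl on the log2 scale. 3 of 4 Cebpa Δ/Δ arrays lay above all Cebpa fl/fl arrays, whereas Cebpa Δ/Δ 4 lay below 2 of them. The log2 fold change was 0.22 (SE 0.17, limma adjusted p = 0.750, exact permutation p = 0.286), and it ranged from 0.08 without Cebpa fl/fl 3, through 0.14 without Cebpa Δ/Δ 1, to 0.33 without Cebpa Δ/Δ 4. The log2 intensities of Irf4 (probe set 10404389) were 4.20, 4.31, 4.12 and 4.93 in Cebpa Δ/Δ and 4.20, 4.11 and 4.16 in Cebpa fl/fl. 6 arrays lay close together and Cebpa Δ/Δ 4 stood above them, the same array that was highest for Spib and lowest among the Cebpa Δ/Δ arrays for Irf8. The log2 fold change of Irf4 was 0.23 (SE 0.20, limma adjusted p = 0.769, exact permutation p = 0.286) with all arrays and 0.05 without Cebpa Δ/Δ 4.

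Batf3 and Zeb2 varied least among the arrays. Batf3 (probe set 10352717) measured 5.39, 5.30, 5.42 and 5.31 in Cebpa Δ/Δ and 5.24, 5.15 and 5.39 in Cebpa fl/fl on the log2 scale. Its arrays overlapped through Cebpa fl/fl 3, and its log2 fold change was 0.10 (SE 0.07, limma adjusted p = 0.745, exact permutation p = 0.229). The 95% interval of its log2 fold change, -0.07 to 0.27, left out a 1.5-fold change in either direction. It was 0.04 without Cebpa fl/fl 2 and 0.16 without Cebpa fl/fl 3. Zeb2 (probe set 10482448) measured 7.89, 7.88, 7.73 and 7.88 in Cebpa Δ/Δ and 7.88, 7.66 and 7.84 in Cebpa fl/fl. Its arrays were interleaved, the log2 fold change was 0.05 (SE 0.07, limma adjusted p = 0.847, exact permutation p = 0.400), and its interval was -0.12 to 0.23.

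**Figure D2:**
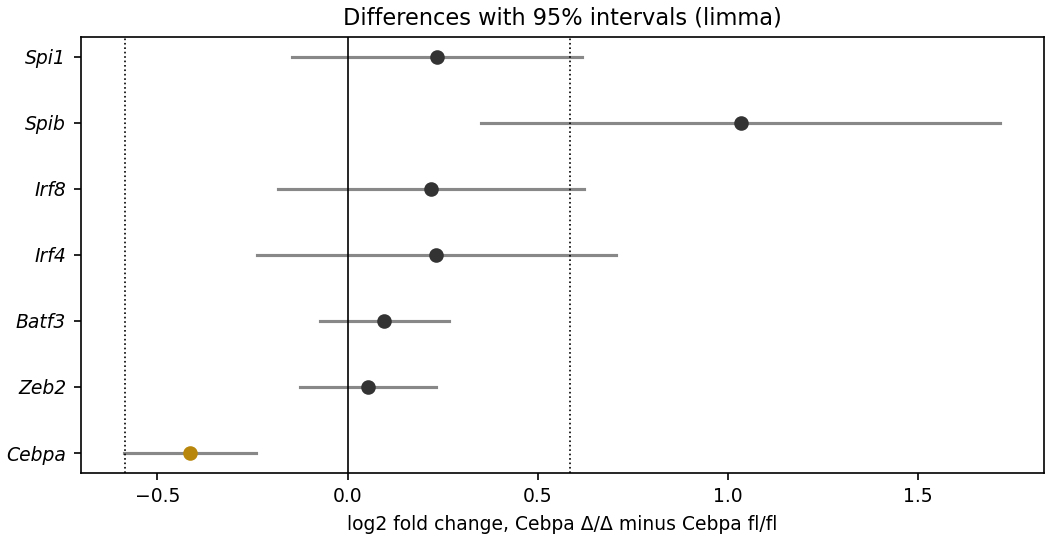
Log2 fold change (x axis, Cebpa Δ/Δ minus Cebpa fl/fl) of the 6 fate factors and of Cebpa, with points for the limma estimate, lines for its 95% interval and dotted lines at 1.5-fold in either direction. The Spib interval, from 0.35 to 1.72, lies wholly above 0, those of the other 5 factors include 0, and Cebpa lies below 0.

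Zeb2 was the only other factor with the C/EBP letters in an upstream window, and its sequence is shown beside that of Spib. Zeb2 had several windows, of which only the one shown held these letters, whereas Spib had 1 window. The level of Zeb2 differed by less than the spread between arrays. The window is that of 1 of its RefSeq starts (GRCm38.p6, chr2:45117443-45117692, minus strand, 5′ to 3′), and the capitals mark TTGCAAAA, 221 to 214 bases before the start.
Zeb2: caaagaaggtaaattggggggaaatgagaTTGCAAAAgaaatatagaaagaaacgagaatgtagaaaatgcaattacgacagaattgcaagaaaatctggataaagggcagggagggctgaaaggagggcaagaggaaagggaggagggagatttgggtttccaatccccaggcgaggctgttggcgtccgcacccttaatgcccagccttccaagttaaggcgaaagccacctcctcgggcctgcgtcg
RefSeq windows were matched for 5 of the 6 factors (9 windows), all but Spi1. On both strands, 5 motifs were searched. The other 4 were the PU.1 box GAGGAAGT (2.44% of all windows), the ETS-IRF composite (GGAA and GAAA with 2 free bases between, 2.3%), the IRF letters (GAAA and GAAA with 2 free bases between, 2.98%) and the AP-1 letters TGANTCA (6.75%). Composite matches can overlap IRF matches. Another Zeb2 window held 2 AP-1 matches, and the windows of Irf8, Irf4 and Batf3 held none of the 5 motifs. No match says only that these letters are not in these windows.

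Of 40 measured relatives of these factors in the ETS, IRF and AP-1 families, 28 had negative log2 fold changes, where 50.3% of all genes did. Most were short of the thresholds, past which 1.57% of all genes were higher and 0.617% lower. Among 23 other measured ETS factors, 1 was higher and 1 lower at the study's thresholds, with a median log2 fold change of -0.04 and 15 negative. The higher one was Spic, the third member of the PU.1 subfamily, which is needed for red pulp macrophages that recycle iron. Spic measured 7.87, 6.88, 6.90 and 7.64 in Cebpa Δ/Δ and 4.55, 4.56 and 5.43 in Cebpa fl/fl on the log2 scale, without overlap, a log2 fold change of 2.48 (SE 0.34, limma adjusted p = 0.276). Within the PU.1 subfamily, Spic and Spib were thus past the thresholds and Spi1 was not, and these log2 fold changes were not tested against each other. The lower one was Etv5, with a log2 fold change of -1.34 (SE 0.31) and no overlap. Among 6 other IRF genes only Irf7, which amplifies the interferon response and is abundant in plasmacytoid dendritic cells, was past the thresholds. Irf7 measured 8.48, 7.82, 9.02 and 7.97 in Cebpa Δ/Δ and 7.28, 7.16 and 7.24 in Cebpa fl/fl, a log2 fold change of 1.09 (SE 0.28, limma adjusted p = 0.520). The 11 BATF and AP-1 partners held 0 higher and 0 lower genes, with a median of -0.18 and 9 negative. This list held Fos, Fosb and Jun, whose levels on Cebpa Δ/Δ 4 and Cebpa fl/fl 3 widened the spread within both genotypes. As 1 of 4 Cebpa Δ/Δ and 1 of 3 Cebpa fl/fl arrays, they raised the Cebpa fl/fl mean more and so lowered these log2 fold changes. Fos was at -0.71 with all arrays, though the other 5 lay between 4.63 and 5.07. Without these 2 arrays 1 gene was higher and 0 lower. The list median and the counts of negative genes were not recomputed without them. The partner with the smallest p, Batf2, had a log2 fold change of -0.17.

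Most genes that work with PU.1 or lie downstream of it were short of the thresholds. Over all genes, 1.57% were called higher and 0.617% lower. Both lists below held a larger share of higher genes, and the target list also of lower genes, which was not tested. Of 16 partners and antagonists, 2 were higher and 0 lower, with a median log2 fold change of -0.05. Both were erythroid factors: Gata1, an erythroid master regulator that opposes PU.1, had a log2 fold change of 1.52 (SE 0.31) and Klf1, which activates globin genes, one of 2.11 (SE 0.39), each without overlap. Cebpe, a granulocyte factor, had a log2 fold change of -0.32 (SE 0.09), without overlap but short of 1.5-fold. Ikzf1, on the same list, had one of 0.38 (SE 0.14), also without overlap and short of 1.5-fold. Of 18 receptors and signalling genes known as PU.1 targets, 2 were higher and 1 lower, with a median of -0.06. The higher ones were Il7r, the interleukin 7 receptor of lymphoid progenitors (1.85, SE 0.26), and Flt3, a cytokine receptor of dendritic and lymphoid progenitors (0.69, SE 0.23), which fell short of the thresholds without Cebpa Δ/Δ 2 (0.55) or Cebpa fl/fl 1 (0.48). The lower one was Cybb, a subunit of the phagocyte oxidase (-1.21, SE 0.49), whose arrays overlapped and which fell short of the thresholds without any one of Cebpa Δ/Δ 1, 2 or 4 or of Cebpa fl/fl 1 or 2 (log2 fold changes between -1.26 and -0.87). Csf1r, the macrophage growth factor receptor and a classical PU.1 target, had a log2 fold change of 0.21 (SE 0.16). Without Cebpa Δ/Δ 4 and Cebpa fl/fl 3 together, 3 of the targets were lower.

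In the circuit of factors around dendritic fate, 2 of 14 measured genes were higher (1.57% of all genes) and 0 lower (0.617%). The median log2 fold change was -0.01. Id2, an inhibitor of E proteins that supports conventional dendritic and innate lymphoid cells and is repressed by Zeb2, measured 7.14, 6.48, 7.73 and 6.40 in Cebpa Δ/Δ and 4.71, 5.85 and 5.85 in Cebpa fl/fl. The genotypes did not overlap, and the log2 fold change was 1.47 (SE 0.43, limma adjusted p = 0.622). Bcl6, a repressor used by germinal centre B cells and some dendritic cells, had a log2 fold change of 1.01 (SE 0.34) with overlapping arrays, and it missed the thresholds without Cebpa fl/fl 1 or without Cebpa fl/fl 2. Tcf4, the E protein that specifies plasmacytoid dendritic cells, had a log2 fold change of -0.22 (SE 0.10).

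**Figure D3:**
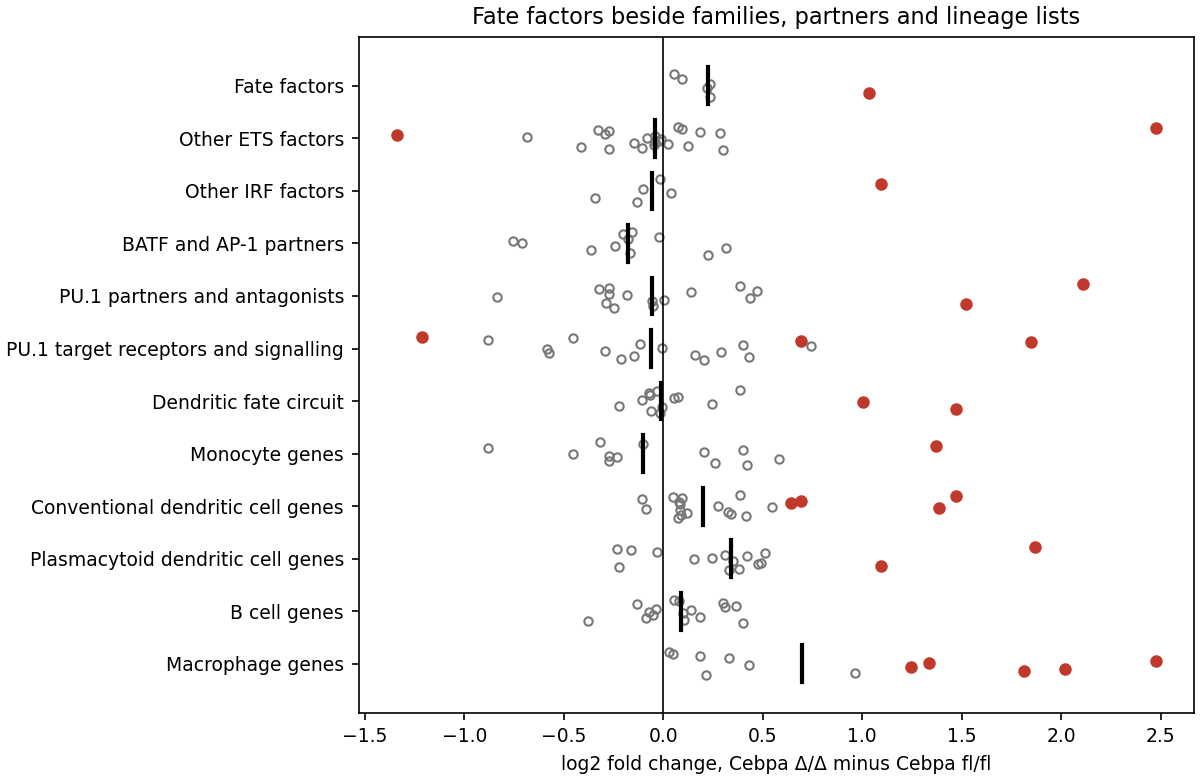
Log2 fold change (x axis, Cebpa Δ/Δ minus Cebpa fl/fl) of every measured gene in the fate factors and 11 lists of relatives, partners, targets and lineage genes. Filled red points passed the study's thresholds, open points did not and black bars are list medians, all from the 7 arrays together. The macrophage list has the highest median drawn (0.70) and the BATF and AP-1 list the lowest (-0.18).

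Most genes of the cell types that these factors specify were short of the thresholds, where 1.57% of all genes were called higher and 0.617% lower. Both dendritic lists below held a larger share of higher genes than that, which was not tested. In bulk samples fewer cells of a type and less RNA per cell cannot be told apart. Of 13 measured monocyte genes, 1 was higher and 0 lower, with a median log2 fold change of -0.10. That gene was Ly86, the partner of a Toll-like receptor relative (1.37, SE 0.50), whose arrays overlapped and which missed the thresholds without Cebpa Δ/Δ 1 or 4 or without Cebpa fl/fl 1 or 3 (1.06 to 1.24). Of the 5 measured defining markers of monocytes, 4 lay below the median gene level, and 0 passed the thresholds. Ms4a6c, the other one, had a log2 fold change of 0.58 (SE 0.15), just short of 1.5-fold. The count of higher monocyte genes was 2 without Cebpa Δ/Δ 3 and 0 without Cebpa Δ/Δ 4 or Cebpa fl/fl 3 or both. The mean deviation of the list on Cebpa Δ/Δ 4, 0.32, was carried by Nr4a1, an immediate early gene at 9.86 there. Over the other 12 genes it was 0.10, below the 0.13 on Cebpa fl/fl 2.

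Conventional dendritic cell genes were positive in 18 of 20 cases, with a median log2 fold change of 0.20. The arrays did not overlap in 7 of 20 with Cebpa Δ/Δ higher (3.51% of all genes) and in 0 with it lower (2.46%). At the thresholds 4 were higher and 0 lower. Besides Flt3 and Id2 these were Clec10a, a lectin of macrophages and dendritic cells (1.39, SE 0.48), and Cd74, the invariant chain of MHC class II (0.64, SE 0.20). The count was 2 without Cebpa Δ/Δ 1, 1 without Cebpa fl/fl 1 and 2 without Cebpa fl/fl 2. All 4 defining markers (Zbtb46, Itgax, Xcr1 and Clec9a) lay below the median gene level, and 0 passed. Itgax was the nearest, between 4.43 and 4.91 in Cebpa Δ/Δ arrays and between 4.18 and 4.38 in Cebpa fl/fl arrays, with a log2 fold change of 0.42 (SE 0.12). The summed intensity of the 20 genes was 6538 to 7668 in Cebpa Δ/Δ and 5262 to 5857 in Cebpa fl/fl.

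Plasmacytoid dendritic cell genes, the list closest to the known role of Spib, were positive in 12 of 16 cases with a median of 0.34. The arrays did not overlap in 5 of 16 with Cebpa Δ/Δ higher (3.51% of all genes) and in 0 with it lower (2.46%). At the thresholds 2 were higher and 0 lower. These were Irf7 and Cd7, a surface protein of lymphoid progenitors and T cells (1.87, SE 0.33, without overlap). The count was 4 without Cebpa fl/fl 2. The defining markers were not past the thresholds: Siglech had a log2 fold change of 0.33 (SE 0.13), Ccr9 of 0.49, Bst2 of 0.38, Cox6a2 of 0.35 and Tcf4 of -0.22. The summed intensity of the list was 3573 to 3703 in Cebpa Δ/Δ and 3153 to 3427 in Cebpa fl/fl. Of 16 B cell genes, the other setting in which Spib is known, 0 were higher and 0 lower, with a median of 0.09 and sums of 618 to 729 in Cebpa Δ/Δ and 628 to 744 in Cebpa fl/fl. The 3 measured B cell markers Cd79a, Ms4a1 and Pax5 lay below the median gene level. The plasmacytoid mean deviation was 0.10 to 0.31 in Cebpa Δ/Δ and -0.26 to -0.16 in Cebpa fl/fl, without overlap, as for Spib. The conventional dendritic one did not overlap either, at 0.02 to 0.32 in Cebpa Δ/Δ and -0.24 to -0.18 in Cebpa fl/fl. The B cell one overlapped, at -0.10 to 0.11 in Cebpa Δ/Δ and -0.12 to 0.05 in Cebpa fl/fl. On Cebpa Δ/Δ 4, the array with the most Spib, the plasmacytoid and B cell deviations were 0.10 and -0.10. Any link between Spib and these lists was not tested.

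Genes of other lineages moved with genotype on the same arrays. Of 12 macrophage genes, 5 were higher and 0 lower (median 0.70), among them Spic, C1qc (2.02, SE 0.43) and Vcam1 (1.24, SE 0.38). With all arrays their sums were 858 to 1612 in Cebpa Δ/Δ and 514 to 665 in Cebpa fl/fl. Without Cebpa Δ/Δ 4 and Cebpa fl/fl 3 together, 3 of the 12 were higher. All 11 measured erythroid genes were higher (median 2.63), with sums of 5887 to 10296 in Cebpa Δ/Δ and 996 to 2949 in Cebpa fl/fl. Of 12 mature neutrophil genes, 10 were lower and 0 higher (median -3.67), with sums of 306 to 1091 in Cebpa Δ/Δ and 6953 to 16757 in Cebpa fl/fl. By array, the erythroid mean deviation was 0.53 to 1.54 in Cebpa Δ/Δ and -1.74 to -0.58 in Cebpa fl/fl. The macrophage one was -0.01 to 0.83 in Cebpa Δ/Δ and -0.57 to -0.48 in Cebpa fl/fl. The neutrophil one was -1.74 to -0.81 in Cebpa Δ/Δ and 0.94 to 2.43 in Cebpa fl/fl. Each of these lists was thus separated by genotype, as Spib was. The lists were drawn up with earlier results of these data known, so this separation is a description without a test. The part of these lineages in the Spib difference was not tested.

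**Figure D4:**
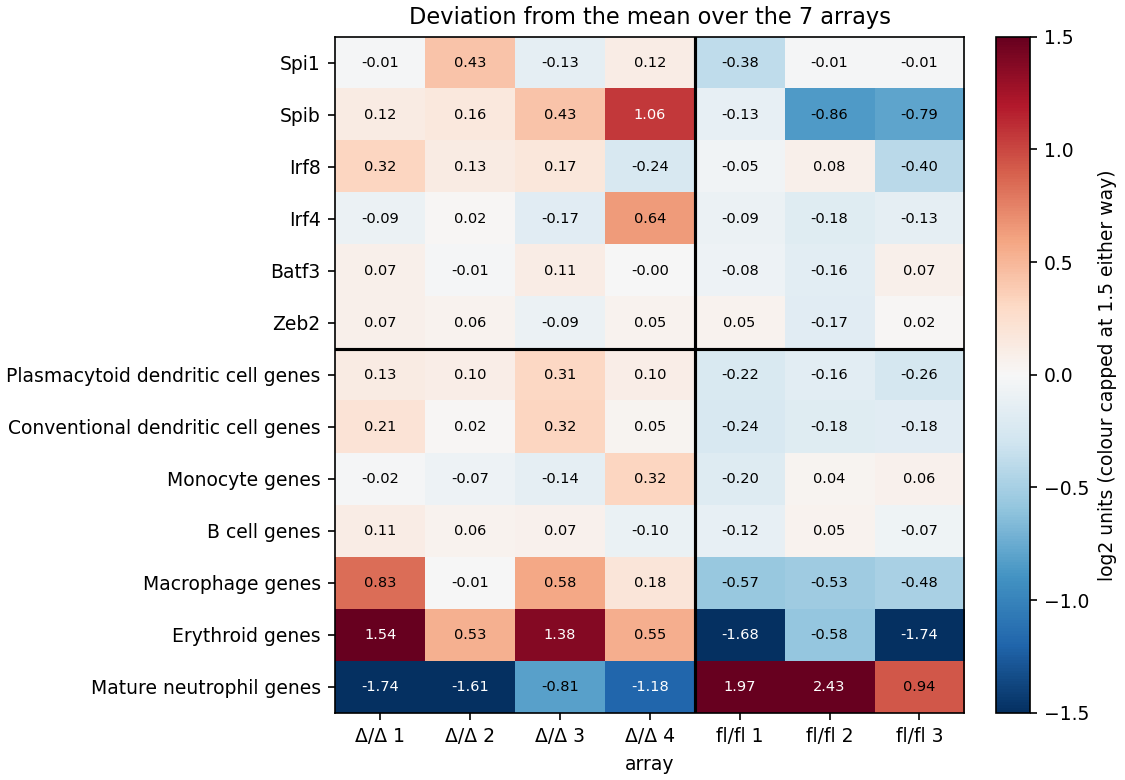
Deviation of each array (x axis) from the mean over the 7 arrays in log2 units, for the 6 fate factors above the line and for 7 lineage lists (mean over genes) below it, with Cebpa Δ/Δ left of Cebpa fl/fl. Spib reaches 1.06 on Cebpa Δ/Δ 4 and -0.86 on Cebpa fl/fl 2. The erythroid list peaks on Cebpa Δ/Δ 1 (1.54) and the neutrophil list on Cebpa fl/fl 2 (2.43).

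Spib was the only factor whose log2 values spanned more than 1 unit over the 7 arrays. The genes whose mean-centred profile lay nearest to it over these 7 arrays were Ccdc68, with a root mean square difference of 0.278 log2 units, Mir543 (0.324) and Ubash3a (0.334), beside 0.623 for the deviation of Spib from its own mean. Ccdc68 measured 5.41, 4.96, 5.29 and 5.52 in Cebpa Δ/Δ and 4.92, 4.47 and 4.24 in Cebpa fl/fl. These 3 were picked from 19938 genes for their likeness, and their own differences between genotypes are therefore a description without a test.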

How the data were processed

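RNA amplified from sorted HSCs with a NuGEN kit was hybridised to Affymetrix Mouse Gene 1.0 ST arrays. The authors deposited linear intensity values made with RMA, a step run in Partek Genomics Suite 6.5 by the study's methods. RMA and affy stand in the submitters' processing notes with no version, and the genome build is not given in the sources used here. Because RMA gives the arrays a common distribution, unequal RNA content of the cells is not visible. The test was planned for log2 values, and log2 of the linear values was taken without a pseudocount. Detection calls were not used here.

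Of 35556 probe sets, 21789 had 1 gene symbol, 1621 several and 12146 were unnamed here. Symbols were updated by Entrez number for 21698 of these through a RefSeq table (GRCm38.p6). For the 999 genes with several probe sets the one with the highest mean was kept, which left 19938 genes, and 0 columns of values were left unused.

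The fit used limma 3.58.1 under R 4.3.3 (lmFit, then eBayes), with genotype as the only term and Benjamini-Hochberg adjustment at 0.05. The study's thresholds (unadjusted p under 0.05, over 1.5-fold) were read from limma because the study names no test for the arrays. Exact permutation tests ran over 35 splits. Intervals are 95% limma intervals, and precision is limited by the number of arrays. The fit was tested on simulated data.

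The members, lists and tests were chosen with earlier results of these data known. Named genes are the 6 factors, Cebpa, from each list the genes past the thresholds or else up to 3 with the smallest p, sort gate genes, and the 3 profiles nearest to a factor spanning over 1 log2 unit. Csf1r, Tcf4 and the other defining markers were named for their roles, and the immediate early genes after their values were seen. Promoter windows came from RefSeq (GRCm38.p6).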

Additional observations from a re-analysis of the deposited data

Results flagged for a closer look

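Single arrays far from the other Cebpa Δ/Δ arrays were looked for in 195 genes, the 6 factors and the genes of every list among them, and 26 were found, where chance gives about 1 in 20 groups. Among the factors it was Zeb2, at 7.73 on Cebpa Δ/Δ 3, below the other Cebpa Δ/Δ arrays (7.88 to 7.89) but above the lowest Cebpa fl/fl array.

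Immediate early genes on Cebpa Δ/Δ 4 were the farthest apart. Jun measured 9.98 there (6.75 to 6.81 on the other Cebpa Δ/Δ arrays), Fos 9.02 (4.63 to 5.07), Fosb 8.25, Nr4a1 9.86 (5.55 to 5.89) and Junb 8.15 (7.27 to 7.32). Cebpa fl/fl 3 was as high in Jun (10.13) and Nr4a1 (9.94). On Cebpa Δ/Δ 4, Cebpd was also high at 6.65, Spdef at 6.25, Marco at 4.68 and Nr4a3 at 4.00, and Etv4 (4.78) and Igll1 (4.84) were low.

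On Cebpa Δ/Δ 3, Fcgr1 (5.80) and Elf5 (4.56) were high, and Gabpa (7.90), Btk (7.65), Bcl11a (9.91) and Lair1 (6.96) were low. On Cebpa Δ/Δ 1, Mertk (4.76) and Blk (4.91) were high, and Elk4 (8.52), Emb (7.55) and Pax5 (5.31) were low. On Cebpa Δ/Δ 2, Cd4 (5.29) and Elf1 (8.91) were high and F13a1 (4.11) was low. Blk, Elf5, Btk, Lair1 and Marco held the same value on the other 3 arrays, so that small gaps were picked out.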

How the results depend on the processing

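Spib kept its direction and stayed past the study's thresholds in all 17 settings that tested it, with log2 fold changes from 0.73 to 1.27 and limma adjusted p-values that never passed. Among genes above the median level, Spib was not tested and the count of factors called higher was 0, by construction. Replicate numbers did not pair the arrays (correlations of deviations of -0.02, 0.10 and -0.18 for numbers 1, 2 and 3), and with the replicate block Spib was at 0.83 (limma p = 0.0309), the same estimate as without Cebpa Δ/Δ 4, the array whose number no other shares. Over the left-out arrays Zeb2 ranged from -0.0132 (without Cebpa fl/fl 2) to 0.10, and the cause was not tested. Itgam was at -0.0266 without Cebpa fl/fl 3, at -0.0176 without Cebpa fl/fl 3 and Cebpa Δ/Δ 4 together, and otherwise between 0.14 and 0.28. Ptprc was at 0.0183 without Cebpa fl/fl 1, at 0.0197 without Cebpa fl/fl 1 and Cebpa Δ/Δ 3 together and otherwise between -0.11 and -0.00014.

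Without Cebpa fl/fl 1 and Cebpa Δ/Δ 3 together, 169 genes were higher in place of 314. The count past the adjusted threshold, 0 with all arrays, was 5 among genes above the median level, 1 without Cebpa Δ/Δ 2, 1 without Cebpa Δ/Δ 4 and 3 without Cebpa fl/fl 3. Counts of higher genes over all settings were 1 to 5 for conventional dendritic, 2 to 4 for plasmacytoid dendritic, 0 to 2 for monocyte, 3 to 6 for macrophage and 1 to 2 each for the dendritic circuit and PU.1 target lists. The PU.1 target count was 1 without Cebpa Δ/Δ 2 or Cebpa fl/fl 1, and the dendritic circuit count 1 without Cebpa fl/fl 1 or Cebpa fl/fl 2. BATF and AP-1 partners had 1 higher gene without Cebpa fl/fl 3. Counts of lower genes were 0 to 3 for PU.1 targets (3 without Cebpa fl/fl 3), 1 to 2 for other ETS factors (2 without Cebpa Δ/Δ 4) and 0 to 1 each for monocyte genes (1 without Cebpa Δ/Δ 2) and PU.1 partners (1 without Cebpa Δ/Δ 4 and Cebpa fl/fl 3 together). Of 42 named genes past the thresholds beside the factors, 32 stayed past them whichever array was left out. Spib, Irf4 and Batf3 lay below the median gene level, and raising values under the percentile 25 to it gave 0.83 for Spib.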

Other observations

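In 63.6% of genes (12672 of 19938), at least 2 arrays held the same value to the last deposited digit. Irf4 was equal on Cebpa Δ/Δ 1 and Cebpa fl/fl 1, Zeb2 on Cebpa Δ/Δ 4 and Cebpa fl/fl 1, and Spi1 on Cebpa Δ/Δ 1 and Cebpa fl/fl 3, while no pair of whole arrays was identical. Spib, Irf8 and Batf3 held 7 distinct values.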
